A study of Mus musculus with 8 samples.

Results

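The adipokine transcripts of 8 genes, Lep, Adipoq, Retn, Cfd, Agt, Nnat, Rbp4 and Apln, were followed in macrophages sorted from mouse epididymal white adipose tissue (eWAT). Members were taken by gene symbol, and all 8 were found in both deposited tables, among 16136 genes listed in both. The macrophages came from male wild-type C57BL/6J mice on a normal diet (ND) or on a high-fat diet (HFD, 60% fat) that was started at 6 weeks of age and kept for 8 weeks. Adhesion-related macrophages (ARMs) were shaken loose with beads from the floating adipocyte layer, whereas stromal vascular fraction macrophages (SMs, named NARM in the sample labels) came from the pellet of the same digest. Both were sorted as CD45+CD11b+F4/80+ cells. ARMs and SMs of each diet gave 2 RNA-seq libraries apiece, 8 in all. A library was made from a pool of 6 mice on HFD or of 10 on ND, so that p-values measure the spread between pools.

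Adipokines are proteins that fat cells release into the blood, where they report the state of the fat store to other organs. Leptin, the product of Lep, acts on the hypothalamus to lower food intake and rises with fat mass, whereas adiponectin, the product of Adipoq, is made almost exclusively by adipocytes and falls in obesity. Cfd encodes adipsin, the serine protease that activates the alternative complement pathway and that is known to fall in obese mice. Retn encodes resistin, Rbp4 the plasma carrier of retinol, Agt the precursor of the angiotensins and Apln the vascular peptide apelin. Nnat, an imprinted gene for a small membrane protein of the endoplasmic reticulum, is expressed in adipocytes but is not a secreted hormone.

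The 250 bases before the annotated start of 4 of these genes are shown because the counts of Lep, Cfd and Agt relative to Adipoq separated the groups described below. They are RefSeq sequences of GRCm38.p6, the assembly that mm10, named in the submitters' processing notes, is built on. They are printed 5′ to 3′ on the strand of the gene, with capitals for matches to the TATA box (TATAAA) or to the C/EBP motif (TTGCNNAA) on either strand.
Lep, chr6:29059971-29060220, plus strand: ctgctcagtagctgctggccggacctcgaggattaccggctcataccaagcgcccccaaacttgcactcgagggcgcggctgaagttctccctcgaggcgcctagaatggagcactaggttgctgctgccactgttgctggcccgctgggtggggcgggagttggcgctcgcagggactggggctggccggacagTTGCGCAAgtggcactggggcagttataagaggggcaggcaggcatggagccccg
Adipoq, chr16:23146286-23146535, plus strand: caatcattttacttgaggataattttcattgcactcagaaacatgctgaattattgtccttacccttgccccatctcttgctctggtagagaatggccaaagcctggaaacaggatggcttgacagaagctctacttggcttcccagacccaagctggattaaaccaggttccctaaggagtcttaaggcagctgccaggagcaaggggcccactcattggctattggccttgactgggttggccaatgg
Cfd, chr10:79890603-79890852, plus strand: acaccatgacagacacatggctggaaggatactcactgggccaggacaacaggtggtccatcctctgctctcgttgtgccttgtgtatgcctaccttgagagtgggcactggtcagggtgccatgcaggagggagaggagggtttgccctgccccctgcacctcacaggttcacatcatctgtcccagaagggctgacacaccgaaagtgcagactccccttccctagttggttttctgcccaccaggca
Agt, chr8:124569707-124569956, minus strand: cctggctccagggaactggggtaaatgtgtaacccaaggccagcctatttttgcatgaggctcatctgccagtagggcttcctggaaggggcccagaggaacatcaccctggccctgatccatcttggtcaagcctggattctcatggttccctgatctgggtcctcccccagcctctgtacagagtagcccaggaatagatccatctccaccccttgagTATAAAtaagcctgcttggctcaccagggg

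Lep held a C/EBP match 55 to 48 bases before its start and Agt a TATA match 30 to 25 bases before it. The only other matches among the 9 member promoters were in the promoter of the second listed start of Rbp4, a C/EBP match 128 to 121 bases and a TATA match 28 to 23 bases before that start. Of all 32851 promoters of this length in the reference, 12.4% held the TATA letters and 9.56% the C/EBP letters. The DR1 motif, a direct repeat of the hexamer that PPARG and RXRA bind as a pair, was in 0.0330% of all promoters and in 0 of the 9.

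The libraries held 14508824 to 19040133 estimated counts, and the summed level of the 8 genes ran from 16.8 to 106 CPM. All 12 macrophage markers were expressed and none of them differed between ARMs and SMs by the rule used for calls, a fold change over 1.5 with a Benjamini-Hochberg adjusted p under 0.05 from the quasi-likelihood test of edgeR. Their summed level was 23015 to 24462 CPM in HFD ARMs, 25102 to 25416 in HFD SMs, 25658 to 26543 in ND ARMs and 26004 to 26706 in ND SMs. CPM is the count scaled to the library total, here with TMM-normalized totals for every level in CPM.

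Markers of some other cells were also higher in ARMs, and which ones differed by diet. Of all genes tested, 4.46% on HFD and 3.55% on ND were called higher in ARMs. Of 20 adipocyte markers that are not among the 8 genes, 17 were higher in ARMs on HFD, and 13 of the 19 tested on ND. None of the 20 was at 0, and their summed level was 1837 to 2031 CPM in HFD ARMs, 916 to 925 in HFD SMs, 1354 to 1888 in ND ARMs and 971 to 1143 in ND SMs. Lpl was the largest part of each sum, at 742 and 886 CPM in HFD ARMs and 513 and 525 in HFD SMs. On ND it was at 792 and 981 CPM in ARMs and 631 and 737 in SMs. Plin1, which coats the lipid droplet of fat cells, was 6.23 and 6.29 CPM in HFD ARMs against 0.901 and 0.799 in HFD SMs, and 2.69 and 6.53 CPM in ND ARMs against 1.08 and 1.38 in ND SMs. Endothelial markers were called higher in ARMs for 9 of 10 on HFD (152 to 161 CPM in sum, against 47.3 to 65.8) and 1 of 10 on ND (40.7 to 81.0 against 30.2 to 37.5). Fibroblast markers were called for 5 of 10 on HFD (1035 to 1235 CPM against 752 to 776) and 9 of 10 on ND (1153 to 1724 against 507 to 623). Mesothelial markers were called for 0 of 8 and 7 of 8, those of pericytes and smooth muscle for 2 of 7 and 3 of 7 tested, those of lymphatic vessels for 3 of 6 and 4 of 6, and those of erythroid cells for 4 of 5 and 0 of 4 tested, on HFD and ND respectively. No T and B cell marker was called of 4 tested on either diet, and of 6 tested markers of neutrophils and mast cells 1 was called higher on HFD and 1 lower on ND. The part of these cells in the adipokine counts was not tested. In bulk libraries like these, fewer cells that carry a transcript and less of it per cell cannot be told apart.

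**Figure D1:**
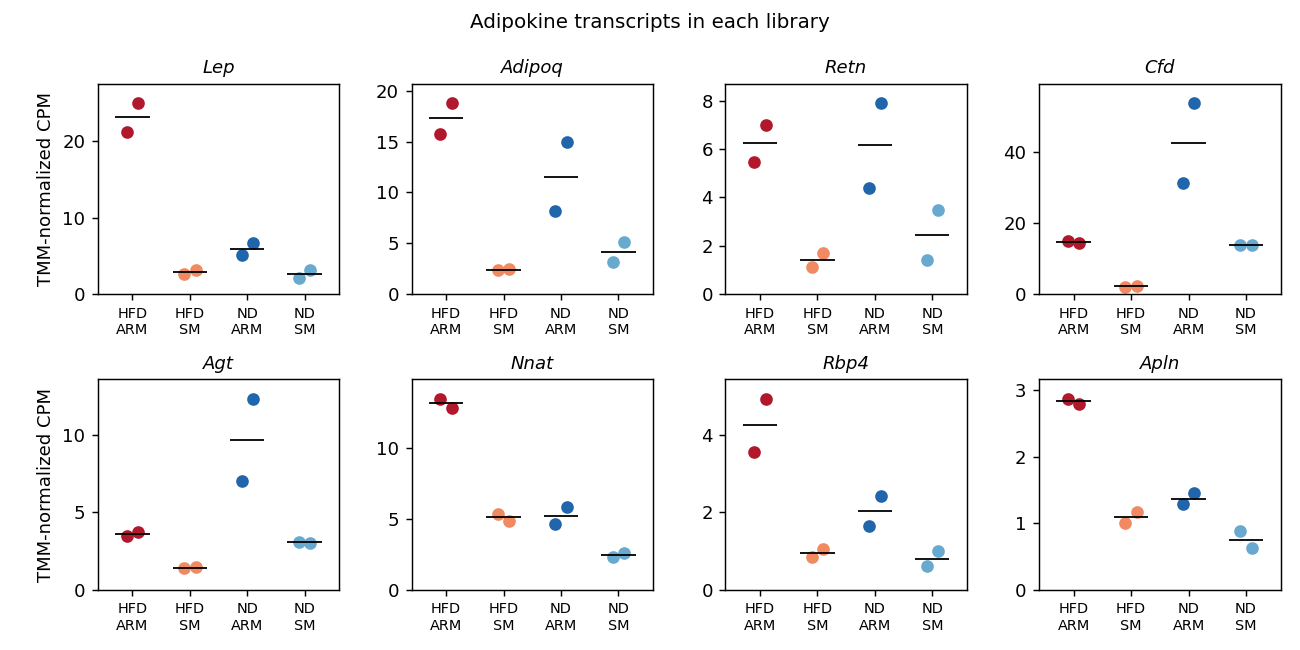
Level of each of the 8 transcripts in TMM-normalized CPM (vertical axes, from 0, one scale per gene), by diet and cell type. Each point is 1 library and the line is the mean of 2, and in all 8 panels both ARM libraries lie above both SM libraries of the same diet.

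On HFD, all 8 adipokine transcripts were higher in ARMs than in SMs, by 2.51-fold (Agt) to 7.91-fold (Lep). In all 8, both ARM libraries lay above both SM libraries, which was so for 26.3% of the 13337 genes tested, and all 8 passed the rule for a call, as 4.46% of the genes tested did in that direction. The median log2 fold change of the 8 was 2.14, against -0.01 over all genes tested. Summed over the 8 genes, the ARM libraries had 80.8 and 89.6 CPM and the SM libraries 16.8 and 18.2 CPM, a 4.87-fold difference. With 2 libraries against 2, the exact permutation test of such a sum cannot give a p below 0.33, which is what it gave (two-sided).

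Lep, Adipoq and Cfd rose the most. Lep was at 21.2 and 25.1 CPM in HFD ARMs and at 2.65 and 3.20 CPM in HFD SMs, a 7.91-fold difference (95% interval 6.32 to 9.89, adjusted p = 2.77e-06, edgeR). Adipoq was at 15.8 and 18.8 CPM in ARMs and at 2.33 and 2.45 CPM in SMs, 7.22-fold apart (5.68 to 9.18, adjusted p = 5.76e-06). Cfd was at 14.9 and 14.4 CPM in ARMs and at 2.12 and 2.24 CPM in SMs, 6.70-fold apart (5.32 to 8.43, adjusted p = 5.76e-06). The intervals of the 3 genes overlapped, and the replicates of each group lay close together against the distance between ARMs and SMs.

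Rbp4 and Retn, the retinol carrier and resistin, took a middle place. Rbp4 was at 3.58 and 4.95 CPM in HFD ARMs and at 0.848 and 1.07 CPM in SMs, a 4.43-fold difference (2.86 to 6.87, adjusted p = 0.00119, edgeR). Retn was at 5.47 and 6.99 CPM in ARMs and at 1.11 and 1.70 CPM in SMs, a 4.41-fold difference (2.997 to 6.49, adjusted p = 0.000577). Their lowest counts were 16 (Rbp4) and 21 (Retn) in an SM library, and their intervals are wider than those of Lep, Adipoq and Cfd.

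Nnat, Apln and Agt rose the least. Nnat was at 13.5 and 12.9 CPM in HFD ARMs and at 5.36 and 4.85 CPM in SMs, 2.58-fold apart (2.11 to 3.16, adjusted p = 0.000175, edgeR). Its difference was larger in FPKM, with means of 8.38 in ARMs and 2.40 in SMs (log2 fold change 1.76, limma on log2(FPKM + 0.1)). The gene length implied by its FPKM was 1594 bases in HFD ARMs and 2106 in HFD SMs. Apln was at 2.87 and 2.80 CPM in ARMs and at 1.007 and 1.17 CPM in SMs, 2.59-fold apart (1.71 to 3.93, adjusted p = 0.0109). Agt was at 3.47 and 3.76 CPM in ARMs and at 1.38 and 1.49 CPM in SMs, 2.51-fold apart (1.74 to 3.64, adjusted p = 0.00700). The calls of Agt and Apln were lost under several alternatives. Under DESeq2 their adjusted p was 0.0552 and 0.101, and in edgeR without a filter on low counts 0.0539 and 0.0601. In edgeR without HFD ARM replicate 1 their adjusted p was 0.0639 and 0.107, and without HFD ARM replicate 2 it was 0.107 and 0.114. Nnat lies inside Blcap, which is read from the other strand, and whether the counting used strand is not given in the sources used here. Blcap itself had a log2 fold change of 0.01 on HFD (adjusted p = 0.965) and 0.02 on ND (adjusted p = 0.966).

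**Figure D2:**
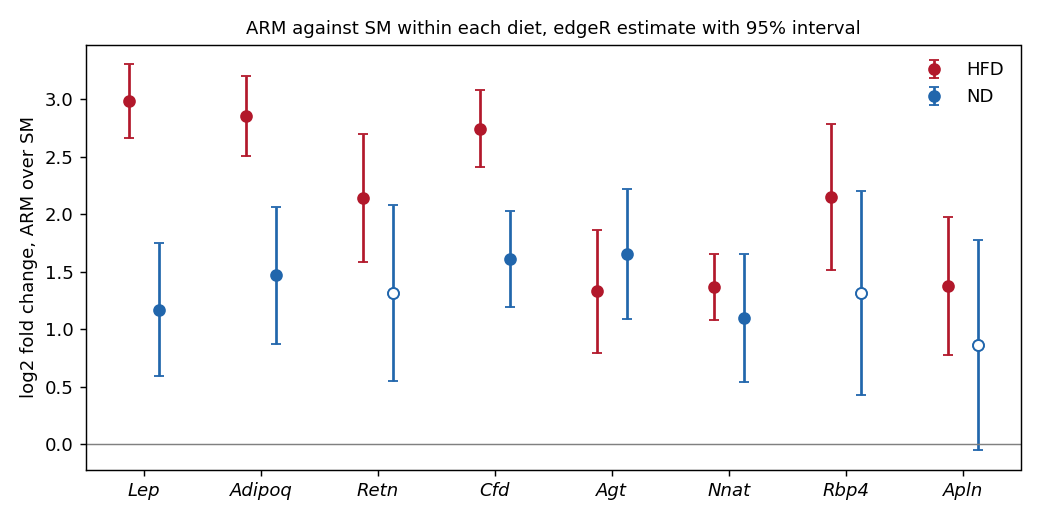
Log2 fold change of ARMs over SMs (vertical axis) for each transcript on HFD and on ND, with the edgeR 95% interval; open points did not pass the rule for a call. All 16 estimates lie above 0, those of Lep, Adipoq and Cfd reach 2.74 to 2.98 on HFD, and the ND estimates lie between 0.86 and 1.65.

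On ND, all 8 transcripts were again above the SM libraries in both ARM libraries, which was so for 21.2% of the 12441 genes tested. The differences ran from 1.81-fold (Apln) to 3.15-fold (Agt), and 5 of the 8 passed the rule for a call, as 3.55% of the genes tested did in that direction. The median log2 fold change of the 8 was 1.31, against -0.02 over all genes tested. The summed level was 63.8 and 106 CPM in the ARM libraries and 27.4 and 32.9 CPM in the SM libraries, 2.81-fold apart (exact permutation p = 0.33, two-sided, the smallest possible).

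Agt and Cfd had the largest differences on this diet. Agt was at 7.02 and 12.4 CPM in ND ARMs and at 3.10 and 3.02 CPM in ND SMs (3.15-fold, 95% interval 2.12 to 4.66, adjusted p = 0.00159, edgeR). Cfd was at 31.5 and 54.0 CPM in ARMs and at 13.9 and 13.97 CPM in SMs (3.06-fold, 2.29 to 4.09, adjusted p = 0.000236). For both, the ARM libraries differed from each other by far more than the SM libraries did. Adipoq was at 8.18 and 14.9 CPM in ARMs and at 3.17 and 5.10 CPM in SMs (2.77-fold, 1.83 to 4.18, adjusted p = 0.00554). Lep was at 5.13 and 6.74 CPM in ARMs and at 2.09 and 3.15 CPM in SMs (2.25-fold, 1.51 to 3.35, adjusted p = 0.0205). Nnat was at 4.64 and 5.83 CPM in ARMs and at 2.29 and 2.58 CPM in SMs (2.14-fold, 1.45 to 3.15, adjusted p = 0.0245).

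Retn, Rbp4 and Apln did not pass on ND. Retn was at 4.397 and 7.92 CPM in ARMs and at 1.42 and 3.46 CPM in SMs (2.48-fold, 95% interval 1.46 to 4.22, adjusted p = 0.05004, edgeR). Rbp4 was at 1.65 and 2.43 CPM in ARMs and at 0.607 and 1.007 CPM in SMs (2.48-fold, 1.34 to 4.60, adjusted p = 0.0983). Apln was at 1.28 and 1.46 CPM in ARMs and at 0.876 and 0.629 CPM in SMs (1.81-fold, 0.964 to 3.42, adjusted p = 0.379). Apln rested on 21 counts in each ARM library and on 13 and 10 in the SM libraries, so a difference of the size seen on HFD lies within its interval.

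Several of the ND calls did not hold under other settings. With all libraries, Lep and Nnat were not called by DESeq2 (adjusted p = 0.0963 and 0.156), nor Lep by limma on log2(FPKM + 1) (adjusted p = 0.0916). Without ND ARM replicate 2, which had the higher value of the pair for all 8 transcripts, the calls of Lep, Adipoq and Nnat were lost (adjusted p = 0.229, 0.156 and 0.216, edgeR) and 2 members were left. Without ND SM replicate 1, Lep and Nnat were lost (adjusted p = 0.255 and 0.217) and 3 were left. Without ND SM replicate 2, Nnat was lost (adjusted p = 0.0705) and Retn was gained (adjusted p = 0.00122). Without ND ARM replicate 1, Retn was gained (adjusted p = 0.0222). Cfd and Agt were called whichever library was left out.

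The difference between ARMs and SMs was larger on HFD for Lep. Each diet's fold change was taken within its own table. In one edgeR fit of all 8 libraries, the log2 fold change of Lep was 1.80 higher on HFD than on ND (95% interval 1.14 to 2.47, adjusted p = 0.0380). Lep was the only one of the 8 to pass an adjusted p under 0.05, as 0.165% of the 13358 genes tested did. Adipoq and Cfd differed in the same direction without passing, by 1.37 (0.52 to 2.23, adjusted p = 0.261) and 1.12 (0.40 to 1.84, adjusted p = 0.278). For Retn, Rbp4, Apln and Nnat the difference was 0.81, 0.82, 0.50 and 0.26, and for Agt it was -0.34, and each of these 5 intervals held 0. With 1 library left out, the difference ran from 0.031 to 1.35 for Retn and from 0.41 to 1.17 for Rbp4. The call of Lep was lost when any 1 of the 4 HFD libraries or of the 2 ND SM libraries was left out, with an adjusted p of 0.0654 to 0.242 and a difference of 1.48 to 2.10. Without ND ARM replicate 2, Adipoq and Cfd were called as well (adjusted p = 0.0265 and 0.00353).

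The 8 transcripts did not keep one proportion to each other on HFD. Adipoq was taken as the reference, and the change of each other member between ARMs and SMs was compared with that of Adipoq in 2 ways, with limma on the log2 ratio of the counts and as the difference of the edgeR log2 fold changes with their errors added in quadrature. The noise of Adipoq is shared by all ratios, and limma takes it as if each gene gave a separate estimate, so that its p-values can be off. For each other member, the adjusted p of limma was below that of the edgeR difference on HFD, where it can be too small. On ND it was above that of the edgeR difference for each of them. The second way was added after the data were seen.

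On HFD, neither Lep nor Cfd passed a test of its change against that of Adipoq. The count of Lep was 392 and 466 against 291 and 350 of Adipoq in ARMs, ratios of 1.35 and 1.33, and 50 and 60 against 44 and 46 in SMs, ratios of 1.14 and 1.30. The log2 ratio was 0.14 higher in ARMs, with a limma 95% interval of -0.24 to 0.52 (adjusted p = 0.475), and the edgeR difference was 0.13 (-0.34 to 0.61, adjusted p = 0.551). The count of Cfd was 275 and 267 in ARMs, ratios of 0.945 and 0.763 to Adipoq, and 40 and 42 in SMs, ratios of 0.909 and 0.913. The change in its log2 ratio was -0.10 by limma (-0.52 to 0.31, adjusted p = 0.627) and the edgeR difference was -0.11 (-0.59 to 0.37, adjusted p = 0.629). Differences within these edgeR intervals were not detectable for either gene.

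Nnat, Agt and Apln were another matter, with ratios to Adipoq 2.77-fold (Nnat) to 2.86-fold (Agt) higher in HFD SMs than in HFD ARMs. The count of Nnat was 249 and 239 in ARMs, ratios of 0.856 and 0.683, and 101 and 91 in SMs, ratios of 2.30 and 1.98. Its log2 change was 1.47 below that of Adipoq by limma (adjusted p = 5.77e-14) and 1.48 below it by the edgeR difference (adjusted p = 2.69e-05). On FPKM in place of counts, the limma value of Nnat was -1.05. The count of Agt was 64 and 70 in ARMs, ratios of 0.220 and 0.200, and 26 and 28 in SMs, ratios of 0.591 and 0.609. The edgeR difference was -1.52 (95% interval -2.16 to -0.89, adjusted p = 0.000338; limma adjusted p = 1.76e-07). The count of Apln was 53 and 52 in ARMs, ratios of 0.182 and 0.149, and 19 and 22 in SMs, ratios of 0.432 and 0.478. The edgeR difference was -1.48 (-2.17 to -0.78, adjusted p = 0.000784; limma adjusted p = 6.44e-06). In all 3, the ratios of the ARM libraries and of the SM libraries lay apart, as they also did for Retn, Rbp4 and, in the other direction, Lep. The share of all genes whose ratio to Adipoq lay apart in this way was not counted.

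Retn and Rbp4 lay between. Retn to Adipoq was 0.347 and 0.371 in HFD ARMs and 0.477 and 0.696 in HFD SMs, an edgeR difference of -0.71 (95% interval -1.37 to -0.05, adjusted p = 0.0368; limma adjusted p = 0.00839). Rbp4 to Adipoq was 0.227 and 0.263 in ARMs and 0.364 and 0.435 in SMs, an edgeR difference of -0.70 (-1.42 to 0.02, adjusted p = 0.0555), where limma gave an adjusted p of 0.0190. The limma call of Retn was lost without HFD ARM replicate 1 (adjusted p = 0.0684) or HFD SM replicate 2 (0.195), and that of Rbp4 without HFD ARM replicate 1 (0.138), HFD ARM replicate 2 (0.0608) or HFD SM replicate 2 (0.101). The calls of Nnat, Agt and Apln were kept under each alternative tried, among them Plin1 in place of Adipoq and each library left out. Because Adipoq had one of the largest differences of all genes, 99.2% of the 13336 genes compared with it on HFD passed by limma in the same direction, so that Nnat, Agt and Apln fell with most genes here, and only Lep and Cfd of the 7 members were among the few genes without a call in either test.

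**Figure D3:**
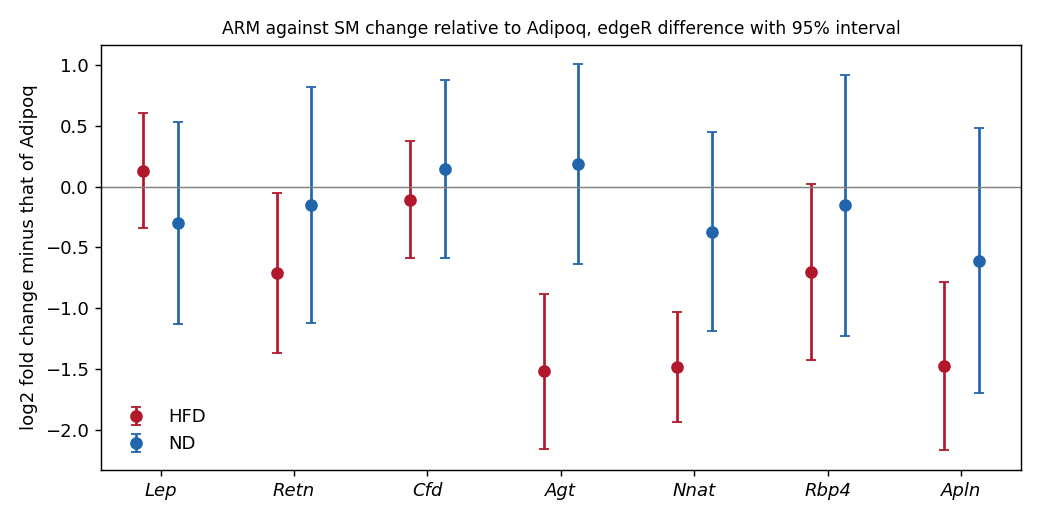
ARM against SM log2 fold change of each transcript minus that of Adipoq (vertical axis), with the 95% interval of the edgeR difference, on HFD and on ND. On HFD the points of Agt, Nnat and Apln lie between -1.52 and -1.48 and those of Lep and Cfd near 0, whereas on ND all 7 intervals hold 0.

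On ND, no member passed the test of its proportion to Adipoq. By limma, 0 of the 7 passed (lowest unadjusted p = 0.358, of Apln; lowest adjusted p of the edgeR difference 0.265) and 0.426% of the 12440 genes did in the direction of a smaller change than Adipoq, and the intervals were wide, as that of Lep shows (-1.57 to 1.03). The edgeR difference was 0.19 for Agt (95% interval -0.64 to 1.01), -0.37 for Nnat (-1.19 to 0.45) and -0.61 for Apln (-1.70 to 0.48). By that test 90.9% of genes had a smaller change than Adipoq at an adjusted p under 0.05, against 0.426% by limma. The edgeR interval of Lep was also narrower than that of limma, at -1.13 to 0.53. A lack of limma calls on ND therefore does not set the members apart from most genes. The exact permutation test of the ratio of each member (two-sided) gave a p of 0.667 or 1, with 0.33 as the smallest value that 2 against 2 allows.

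The change relative to Adipoq was itself compared between the diets, a test added after the data were seen. It was lower on HFD than on ND by 1.71 for Agt on the log2 scale (difference -1.71, 95% interval -2.93 to -0.49, adjusted p = 0.0168, edgeR fit of all libraries) and by 1.11 for Nnat (difference -1.11, -2.14 to -0.09, adjusted p = 0.0436). The difference was -0.88 for Apln (-2.21 to 0.46, adjusted p = 0.193). Since Adipoq had one of the larger differences between diets, 81.6% of all genes passed this test, and a pass does not set Agt or Nnat apart. With so many passing, the adjustment did little (unadjusted p = 0.0349 for Nnat). Without the reference, the diet difference was -0.34 for Agt and 0.26 for Nnat (adjusted p = 0.939 and 0.924, edgeR). That of Adipoq was 1.37 (adjusted p = 0.261). The members that did not pass, Lep (0.43), Cfd (-0.26), Retn (-0.56), Rbp4 (-0.55) and Apln, had intervals that held 0.

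The proportions of Lep, Adipoq and Cfd to each other lay apart between the diets in both ARMs and SMs. The share of all genes whose ratio to Adipoq lay apart in this way was not counted. In FPKM, 73.0% of genes in ARMs and 75.5% in SMs had no overlap between the diets. Lep to Adipoq was 1.14 to 1.35 in the 4 HFD libraries and 0.451 to 0.660 in the 4 ND libraries, 2.19-fold apart in the geometric mean. In ND ARMs it was 0.627 and 0.451, from 84 and 97 counts of Lep and 134 and 215 of Adipoq. In ND SMs it was 0.660 and 0.617, from 31 and 50 counts of Lep and 47 and 81 of Adipoq. Cfd to Adipoq went the other way, at 0.763 to 0.945 in the HFD libraries and 2.74 to 4.38 in the ND libraries, 4.09-fold higher on ND. In ND ARMs it was 3.84 and 3.62, from 515 and 778 counts of Cfd, and in ND SMs 4.38 and 2.74, from 206 and 222 counts.

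Lep to Cfd did not overlap between the diets either. It was 1.43 and 1.75 in HFD ARMs, 1.25 and 1.43 in HFD SMs, 0.163 and 0.125 in ND ARMs and 0.1505 and 0.225 in ND SMs, 8.96-fold higher on HFD in the geometric mean. The exact binomial 95% intervals of the ratio, which cover counting error only, reached down to 0.808 at the lowest in the HFD libraries and up to 0.307 at the highest in the ND libraries. The HFD to ND difference in the log2 ratio was 3.47 in ARMs and 2.86 in SMs. Rbp4 to Adipoq was 0.227 to 0.435 on HFD and 0.163 to 0.201 on ND, 1.66-fold apart without overlap. Across ARMs and SMs, Retn, Agt and Apln had ratios to Adipoq that overlapped between the diets in counts and in FPKM. Within ARMs, the count ratio of Agt lay apart, at 0.220 and 0.200 on HFD against 0.858 and 0.828 on ND. That of Retn did too, at 0.347 and 0.371 on HFD against 0.537 and 0.530 on ND. Within SMs, both overlapped. For Apln the count ratios overlapped within ARMs but lay apart within SMs, at 0.432 and 0.478 on HFD against 0.277 and 0.123 on ND. Across ARMs and SMs, Nnat to Adipoq overlapped in counts but not in FPKM. In FPKM it was 0.566 to 1.35 on HFD and 0.310 to 0.469 on ND. Within each cell type, Nnat to Adipoq lay apart in counts as well. In ARMs it was 0.856 and 0.683 on HFD against 0.567 and 0.391 on ND. In SMs it was 2.30 and 1.98 on HFD against 0.723 and 0.506 on ND. A ratio within a library does not depend on its depth, but each diet has its own table, and the tables differ in implied gene length. Diet cannot be told apart from table or from any other difference between the libraries of the diets, so no test is given. The gene length implied by the FPKM was 1.04 (Apln) to 1.27 (Retn) times as long in the HFD table, 1.05 for Lep, 1.12 for Adipoq and 1.17 for Cfd. On the scale of FPKM the log2 ratio of Lep to Cfd differed by 3.31 between the diets, against 3.16 in counts.

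**Figure D4:**
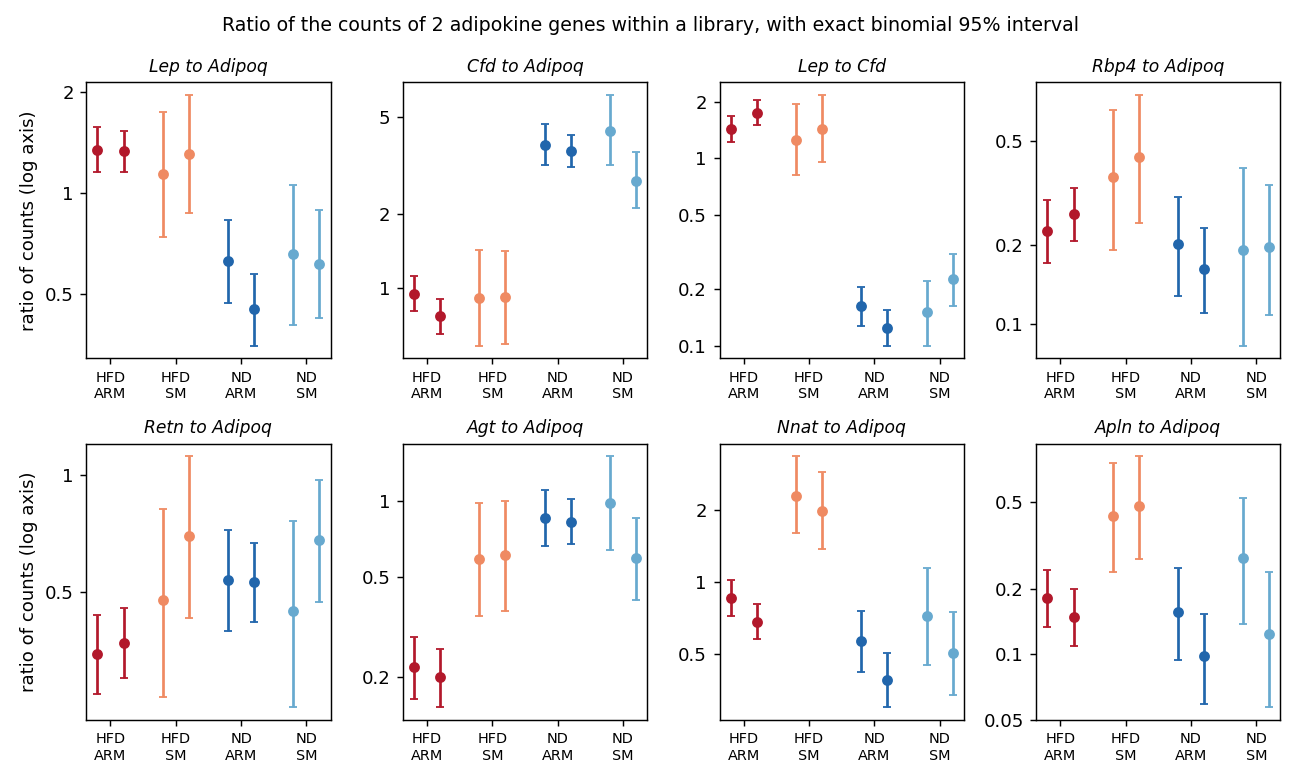
Ratio of the counts of the named genes in each of the 8 libraries (log axes), with exact binomial 95% intervals for counting error. Lep to Cfd lies at 1.25 to 1.75 in all HFD libraries and at 0.125 to 0.225 in all ND libraries, whereas Agt, Nnat and Apln to Adipoq differ between ARMs and SMs within HFD.

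The make-up of the adipokine counts is given as shares of the summed counts of the 8 genes. On ND, the shares in ARMs and SMs overlapped for 7 of the 8, the exception being Nnat at 7.28% and 5.52% in ARMs against 8.35% and 7.84% in SMs. In HFD ARMs, Lep took 26.3% and 28.0% of the counts of the 8 genes, Adipoq 19.5% and 21.0%, Cfd 18.4% and 16.0% and Nnat 16.7% and 14.3%. In HFD SMs, Nnat took the largest share at 31.9% and 26.7%, followed by Lep at 15.8% and 17.6%. In ND libraries Cfd alone took 49.3% and 51.1% in ARMs and 50.6% and 42.4% in SMs. Lep was at 6.37% to 9.56% in the 4 ND libraries and Agt at 9.18% to 11.7%, against 4.20% to 8.21% on HFD.

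**Figure D5:**
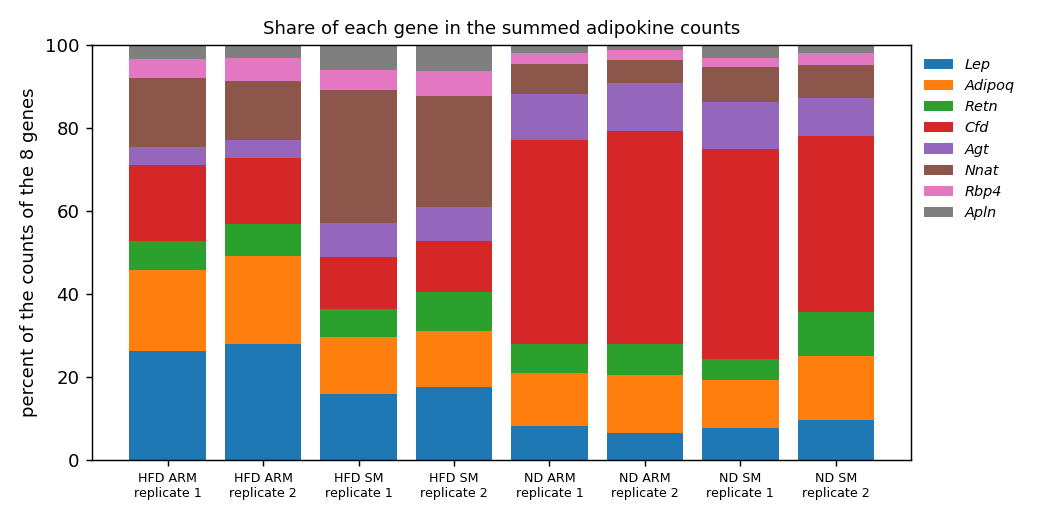
Share of each gene in the summed counts of the 8 adipokine genes (vertical axis, percent), 1 bar per library. Cfd fills 42.4% to 51.1% of each ND bar, and Lep 26.3% and 28.0% of the HFD ARM bars.

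Levels can be compared between genes only per length, and FPKM was used for that. In HFD ARMs the order was Cfd (16.3 ± 0.269 FPKM, SD, n = 2), Adipoq (14.4 ± 1.94), Retn (11.3 ± 2.12), Nnat (8.38 ± 0.735), Lep (7.13 ± 0.905), Rbp4 (4.74 ± 1.12), Agt (1.995 ± 0.134) and Apln (0.905 ± 0.00707), and no pair of neighbours overlapped. In HFD SMs, Retn (2.52 ± 0.742 FPKM), Nnat (2.40 ± 0.226) and Cfd (2.39 ± 0.0849) overlapped at the top, Adipoq followed at 1.95 ± 0.0636, and Rbp4 (1.04 ± 0.170), Lep (0.880 ± 0.113) and Agt (0.770 ± 0.0424) overlapped each with its neighbour. In ND ARMs, Cfd stood alone at 55.1 ± 20.1 FPKM, Retn (14.2 ± 5.62) and Adipoq (10.7 ± 4.32) overlapped, and Agt (5.73 ± 2.18), Nnat (3.6 ± 0.933), Rbp4 (2.51 ± 0.643) and Lep (1.91 ± 0.346) overlapped each with the next. In ND SMs, Cfd was at 17.9 ± 0.127 FPKM, above Retn (5.56 ± 3.44) and Adipoq (3.82 ± 1.27), which overlapped. Below them came Agt (1.81 ± 0.0283), Nnat (1.5 ± 0.184), Rbp4 (1.03 ± 0.368) and Lep (0.840 ± 0.240), of which only the last pair overlapped. Apln was the lowest of the 8 in every group, at 0.250 ± 0.0566 FPKM in ND SMs.

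Between the diets the levels are given as values only. Of the 16 pairs of gene and cell type, 12 had no overlap of the HFD and ND libraries in FPKM, but so did 73.0% of genes in ARMs and 75.5% in SMs, and n is 2 in each group. Lep in ARMs was 3.74-fold higher on HFD, at 7.13 against 1.91 FPKM, whereas in SMs it was 0.880 against 0.840 FPKM with overlap. Cfd was 3.37-fold lower on HFD in ARMs and 7.502-fold lower in SMs, and Agt was 2.87-fold and 2.35-fold lower. Nnat was 2.33-fold higher on HFD in ARMs and 1.60-fold higher in SMs in FPKM, and 2.51-fold and 2.07-fold higher in TMM-normalized CPM. Adipoq in ARMs overlapped between the diets at 14.4 against 10.7 FPKM, but not in TMM-normalized CPM, at 17.2 on HFD against 11.5 on ND. In SMs it was 1.96-fold lower on HFD in FPKM. The FPKM of Nnat rests on an implied length that differed between ARMs and SMs, which its CPM does not use.

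Across the libraries, the genes whose counts moved most like Adipoq were found by the SD of the log2 ratio of their counts, with the mean of each diet taken out, over 8 libraries and 12119 genes with a mean of at least 1 CPM. This is a description, since depth, tissue and the 4 groups are shared by all genes. The 10 nearest were Scd1 (SD 0.151), Cidec (0.180), Lep (0.194), Plin1 (0.218), Cfd (0.223), Car3 (0.229), Plin4 (0.242), A530016L24Rik (0.295), Npr3 (0.309) and Rbp4 (0.326), against a median of 1.36 over all genes. Retn ranked 15, Agt 99, Nnat 103 and Apln 190. With one mean over all 8 libraries Cfd fell to rank 1028 and Lep to 41, while Retn came to 7.

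Agt, Nnat and Apln, which rose the least on HFD, had other nearest genes. The SD holds the ARM against SM change itself, so a gene that rose less than Adipoq lies farther from it by this measure. Agt was nearest to Prelp (SD 0.0862), Col6a3 (0.137) and Sema3f (0.154), of which Prelp and Col6a3 encode proteins of the extracellular matrix. Nnat was nearest to Atp9a (0.104), Ehd2 (0.138) and Sparc (0.141), and Apln to Ceacam16 (0.121), Dab2ip (0.147) and H2-M2 (0.154). Lep was nearest to Adipoq (0.194), Plin4 (0.224) and Car3 (0.250), and Cfd to Cidec (0.154), Plin1 (0.208) and Adipoq (0.223). Retn was nearest to Rbp4 (0.208), Glb1l2 (0.295) and Mrap (0.313), and Rbp4 to Sncg (0.199), Retn (0.208) and Mrap (0.213).

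Some other genes for secreted adipose factors were also higher in ARMs. Of 25 listed, 23 were tested on HFD and 21 on ND, and 5 and 6 were called higher in ARMs, against 4.46% and 3.55% of all genes tested, with none called lower. The median log2 fold change was 0.36 on HFD and 0.25 on ND. On HFD they were Ccdc80 (20.7 and 23.9 CPM against 9.97 and 10.9, log2 fold change 1.09), Sfrp5 (2.66 and 2.69 against 0.371 and 0.373, 2.82), C1qtnf9 (6.72 and 5.86 against 2.44 and 1.70, 1.60), Vegfa (0.98) and Rarres2, the gene of chemerin (0.71). On ND they were Fstl1 (1.204), Ccdc80 (1.52), Rarres2 (1.88), Tnf (0.59), Vegfa (0.93) and C1qtnf6 (1.24). Sfrp5, which encodes a secreted Wnt inhibitor, had a log2 fold change on HFD like those of Lep and Adipoq.

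The receptors and partners of the 8 proteins gave few calls, at shares near those of all genes tested (4.46% on HFD and 3.55% on ND called higher). Of 32 listed, 26 were tested on HFD, where Cdh13 and Aplnr were called higher and Enpep lower, and 23 on ND, where C3 and Ace were called higher and none lower. Cdh13, the cadherin that binds adiponectin, was at 8.83 and 8.66 CPM in HFD ARMs against 2.97 and 2.77 in SMs (log2 fold change 1.61, adjusted p = 0.000275, edgeR). Aplnr, the apelin receptor, was at 4.23 and 3.82 CPM against 2.07 and 1.92 (1.01, adjusted p = 0.0176). Adipor1 was at 165 and 156 CPM in HFD ARMs and 171 and 156 in HFD SMs, and Lepr, the leptin receptor, was at 2.06 and 1.56 against 1.43 and 1.76 CPM, both without a call. C3, the complement protein on which the pathway of adipsin acts, was at 272 and 400 CPM in ND ARMs against 107 and 156 in SMs (1.35, adjusted p = 0.000295). On HFD its log2 fold change of 0.52 was under the 1.5-fold limit. Enpep, an enzyme that trims angiotensin, was at 81.2 and 79.6 CPM in HFD ARMs against 114 and 128 in SMs (-0.59, adjusted p = 0.000751).

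Within the resistin-like family Retn went against its relative in macrophages. Retnla, a marker of alternatively activated macrophages, was at 4703 and 5040 CPM in HFD ARMs against 6363 and 6871 in SMs (log2 fold change -0.44, adjusted p = 0.00222, edgeR, under the 1.5-fold limit), and at 3987 and 4150 CPM in ND ARMs against 5873 and 6559 in SMs (-0.61, adjusted p = 0.00270, called lower). Retn thus made up a very small part of the family's counts in every library while differing in the other direction. Retnlg passed the filter on ND alone, at 0.672 and 1.46 CPM in ARMs against 2.22 and 2.64 in SMs (-1.21, adjusted p = 0.116).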

How the data were processed

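The authors deposited 1 table per diet, with the expected read count, FPKM and TPM of each gene in each library. The submitters' notes name mm10, and the aligner and counting program are not given in the sources used here. The deposited expected counts were whole for all 8 genes, though 32.3% to 32.9% of values in the HFD table and 8.55% to 9.36% in the ND table were not. Whether the libraries, the sequencing or the counting differed between the diets is not given in the sources used here. Counts were rounded and fitted per diet with edgeR 4.0.16 in R 4.3.3 (filterByExpr, TMM, quasi-likelihood test, Benjamini-Hochberg adjustment). Ratios to Adipoq, with 0.5 added to counts, were fitted with limma 3.58.1, and DESeq2 1.42.0 was an alternative. The deposited FPKM served for levels across genes and the deposited TPM as an alternative. Replicates differed by more than sampling noise (mean chi-square per gene 4.06 to 9.59, for genes with at least 10 counts). The exact binomial intervals of ratios were taken within a single library, so they cover counting error only. Whether reads carried molecular identifiers is not given in the sources used here. Fits were tested on simulated data. Members, marker lists and other lists were chosen with earlier results of these data known. Named from the lists were all 8 members, up to 6 called genes per list and diet by adjusted p, the resistin-like genes, the 10 genes nearest to Adipoq and the 3 nearest to each other member. Adipor1 and Lepr were named after their values were seen. Plin1 was the second reference. The authors' average columns were not used.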

Additional observations from a re-analysis of the deposited data

Results flagged for a closer look

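The ARM against SM change of Lep differed between the diets. The median log2 change of the adipocyte markers was also larger on HFD (2.30, against 1.18 on ND), a difference that was not tested. The change of Lep was 1.80 higher on HFD on the log2 scale (2.98 on HFD, 1.17 on ND, adjusted p = 0.0380 in edgeR's test of the difference), with both ARM libraries above both SM libraries on each diet. The difference was positive under every alternative that gave a value, from 1.48 to 2.10, while its adjusted p ran from 0.00131 to 0.242.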

How the results depend on the processing

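On HFD, 8 members were called higher in ARMs, and 6 to 8 under each alternative except limma on unfiltered log2(FPKM + 1), which called 3. On ND, 5 were called, with 3 under DESeq2, 0 under limma on unfiltered log2(FPKM + 1) (where 0 of all genes were called higher), and 4 to 7 under the other settings. Leaving out 1 library gave 6 to 8 on HFD and 2 to 6 on ND. With the replicate number as a block, 8 and 7 were called, Retn and Rbp4 being gained on ND, and 3 members (Lep, Adipoq and Cfd) differed between the diets in place of 1. The labels give the numbers but do not say that they pair the samples, and deviations of same-numbered ARM and SM libraries correlated at -0.03 (HFD) and 0.22 (ND) across genes. The block left the counts relative to Adipoq at 5 and 0. Without 1 library in turn, 0 to 3 members differed between the diets, and the HFD to ND difference of Agt ran from -0.66 to 0.13. DESeq2 gave no adjusted p for any of the 8 members in that comparison. Relative to Adipoq, the count on HFD was 5 by limma and 4 by the edgeR difference. Of the 13336 genes compared with Adipoq, 99.2% and 99.3% passed these tests in the same direction. Without 1 library, the log2 change of Cfd relative to Adipoq ran from -0.26 to 0.051 on HFD and from -0.22 to 0.45 on ND. On ND, that of Retn ran from -0.35 to 0.24, of Agt from -0.22 to 0.50 and of Rbp4 from -0.29 to 0.023. Each of these ranges held both signs. With Plin1 as the reference on ND, Cfd was at -0.19 and Agt at -0.15. The log2 ratio of the summed members on HFD was 2.28 in CPM and 2.41 in FPKM, and on ND 1.49, or 1.08 to 1.81 without 1 library. The cause of these changes was not tested. Over all genes, DESeq2 called 358 (HFD) and 258 (ND) higher against 595 and 442, the unadjusted threshold of the methods text 922 and 794, no filter 167 on HFD, and the block 719 on ND. Apln had 10 to 53 counts in a library and Rbp4 9 to 92, which limits what can be seen for them.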
